A study of Homo sapiens with 12 samples.

Results

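Gene expression at the end of the second of 2 interferon pulses was compared with that at the end of a single pulse, gene by gene across the whole transcriptome. The comparison rests on the 3 libraries labelled repeat and the 3 labelled acute, 6 of the 12 libraries of the study, chosen by their labels alone. Of 60649 gene identifiers counted, 18119 passed the filter on low counts and were tested.

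The cells were AC16, a human line with wild-type genotype made by fusing adult ventricular cells with a transformed fibroblast line. Recombinant interferon alpha-2a was given at 1000 U/mL. Acute cells received 1 pulse of 24 h and were collected as it ended. In repeat cells a first pulse of 24 h was followed by 4 interferon-free days and a second pulse of 24 h, and collection was at the end of the second, which the labels place on day 7 although the stated times add to 6 days. Recovery cells had the 24 h pulse followed by 5 days without interferon, and vehicle cells had phosphate-buffered saline and a 24 h label. Each group had 3 libraries, all with the same batch label. Repeat cells had therefore been in culture for several days more than acute cells, and an earlier pulse and longer culture cannot be told apart in repeat minus acute. The sources name different culture media for these cells.

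Type I interferon binds a receptor of 2 chains, IFNAR1 and IFNAR2, whose kinases activate transcription factors of the STAT family. Together with IRF9, STAT proteins bind the interferon-stimulated response element, a sequence of paired GAAA-type blocks, in the promoters of many antiviral genes. Cells that have been stimulated can respond less to a later pulse, for which USP18, a protein that binds IFNAR2, is known, and can also keep some promoters in a state that allows a faster or larger later response.

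Total estimated counts were 39.9 to 56.5 M in the acute libraries and 48.8 to 62.3 M in the repeat libraries. The spread between replicates was small, with a biological coefficient of variation of 2.67% over the 12 libraries, so that differences of a few percent could be called. Of 20 cardiomyocyte markers only 5 passed the filter, and their summed level was 6.41 to 8.55 TPM (transcript abundance scaled by gene length and library size) over all libraries, whereas 13 of 13 fibroblast markers passed, with sums of 4702 to 5099 TPM. The label cardiomyocyte is therefore not borne out by these markers. Summed markers of macrophages and lymphocytes were 112 to 118 TPM in the vehicle, 269.6 to 295 TPM in the acute and 275 to 287 TPM in the repeat libraries. CD68, a lysosomal membrane protein, gave nearly all of this sum, with estimated counts of 4155 to 5323 in vehicle and 9407 to 14999 in acute and repeat. The defining markers CD3D, CD3E and MS4A1 were at 0 in every library, and PTPRC, CD14 and CSF1R had 14 to 80 counts.

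Between the end of the second and the end of the first pulse, few genes were called different, and nearly all called differences were small. An unadjusted p under 0.05 was reached by 3072 genes in edgeR, so genes not called are not shown to be equal. At an adjusted p under 0.05, 761 genes were called, 4.2% of those tested, of which 321 were higher in repeat (1.77%) and 440 lower (2.43%). The median size of a called difference was 0.14 on the log2 scale, or 1.10-fold, with a 5th percentile of 0.081 and a 95th of 0.47. The values of the 3 and 3 libraries did not overlap for 755 of the called genes, against 20.3% of all genes tested. Only 22 called genes differed by 1.5-fold or more (12 higher, 10 lower), and only 2 of them, RSAD2 and SFRP1, reached a mean of 5 CPM (counts scaled to library size) in the higher group. In a test against a change of 1.5-fold in place of no change, edgeR called 0 genes, with 69 at an unadjusted p under 0.05, and DESeq2 called 1, with 20 at an unadjusted p under 0.05. For scale, the contrast of acute with vehicle, which shares the acute libraries, called 22.3% of genes higher and 21.5% lower.

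**Figure D1:**
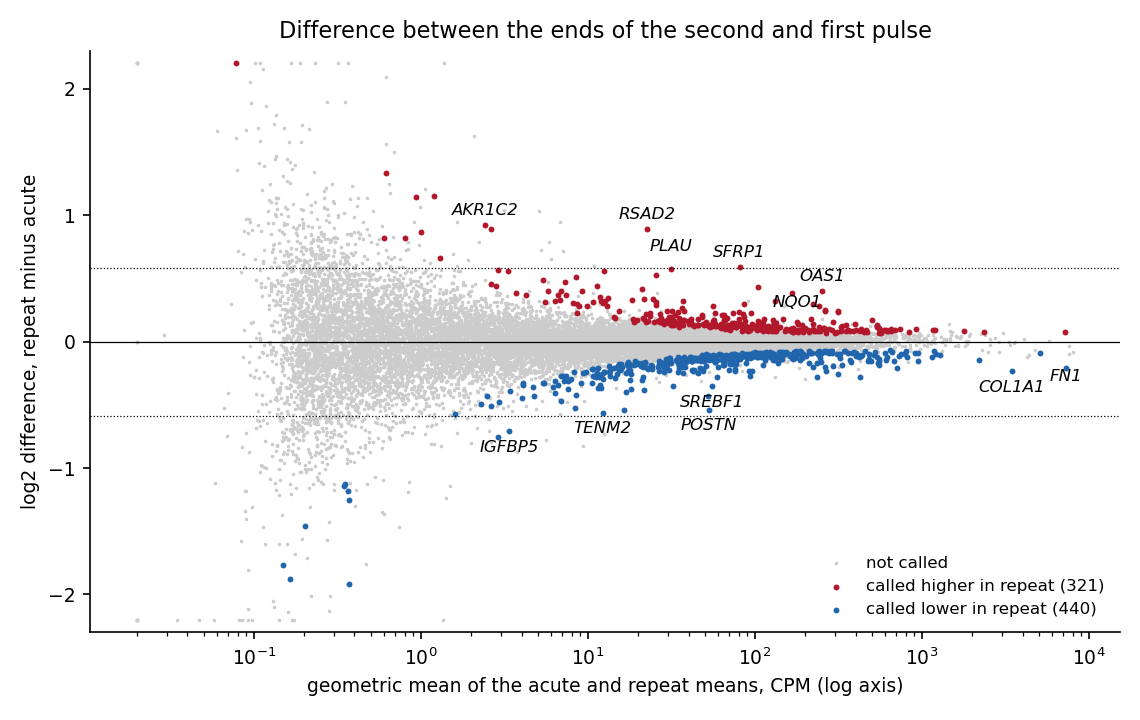
Log2 difference between repeat and acute for each of the 18119 genes tested (points), against the geometric mean of the 2 group means in CPM on a log axis. Red and blue points are the 321 genes called higher and the 440 called lower, dotted lines mark a 1.5-fold difference, and differences beyond the vertical axis are drawn at its edge. Apart from RSAD2 and SFRP1, the called genes with a mean of at least 5 CPM in the higher group lie between the dotted lines.

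The number of calls depended on single libraries. Genes called higher numbered 147 without acute replicate 2, 171 without acute replicate 3, 162 without repeat replicate 2, 184 without repeat replicate 3 and 526 without repeat replicate 1. Genes called lower numbered 280, 230 and 166 without acute replicates 1, 2 and 3, and 692, 198 and 246 without repeat replicates 1, 2 and 3. All 761 genes kept their direction in each of these 6 fits. For 755 of them the acute and repeat libraries did not overlap, so leaving out 1 library could hardly reverse a direction, and this is no added support. Where the deposited TPM values, or the gene lengths they imply, entered the fit, the number called fell to 6 and 10, while 741 and 742 of the 761 kept their direction. The spread within groups was 0.077 on the log2(TPM + 1) scale against 0.044 on the log2(CPM + 1) scale, as medians over 11085 genes. RSAD2, SFRP1, S100A6, COL4A2, COL1A1 and SREBF1 were called in all 15 alternative fits, and every other call named here was lost on the log2 TPM scale.

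Gene length moved with the difference. Genes with a mean of at least 5 CPM were divided into 4 classes of near equal size by the length that counts and TPM imply. In the shortest class (2772 genes) 4.18% were called higher and 1.59% lower, and in the longest (2771 genes) 1.88% were called higher and 6.53% lower. The median deviation of the shortest class minus that of the longest was 0.083 on the log2 scale in repeat replicate 2 and 0.037 in repeat replicate 3, against -0.0047 in repeat replicate 1 and -0.025 to 0.0042 in the other 9 libraries. With this trend removed from each library, an alternative chosen after seeing the data, 327 genes were called higher and 398 lower, and 608 of the 761 calls were kept.

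The antiviral effectors, proteins that block viral entry, translation or replication, were mostly not called different between the pulses. Of 52 tested, 8 were higher in repeat (15.4%, against 1.77% of all genes tested) and 3 were lower (5.77%, against 2.43%). The other 41 were not called. The median log2 difference was -0.012, against 0.00055 over all genes tested. All 52 had been called higher in acute than in vehicle, with a median of 2.96. The 8 higher members were RSAD2, CMPK2, OAS1, OASL, MX2, LY6E, OAS2 and IFI44, and the 3 lower ones HELZ2, LGALS3BP and PML. The count of 8 was 5 without acute replicate 1 or without acute replicate 3, and 7 with the length trend removed.

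RSAD2 encodes viperin, a radical enzyme that makes a chain-terminating nucleotide. It stood at 16.6, 15.1 and 18.03 CPM in the acute libraries and 31.1, 30.1 and 31.2 CPM in the repeat libraries. The groups were well apart, and the difference was 0.89 ± 0.062 (SE) on the log2 scale, or 1.85-fold (adjusted p = 2.64e-09). In vehicle it was 0.420, 0.317 and 0.368 CPM and in recovery 2.53, 1.69 and 2.34 CPM, so that some RSAD2 mRNA was also present without a current pulse in cells pulsed before. RSAD2 (ENSG00000134321.13; chromosome 2, 6865557 to 6898239, plus strand) overlaps its neighbour CMPK2 (chromosome 2, 6840570 to 6866635, minus strand) in the annotation, and whether counting used strand is not given in the sources used here.

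CMPK2, a mitochondrial kinase of nucleotide monophosphates, was measured at 21.2, 20.7 and 21.7 CPM in acute and 30.3, 30.3 and 30.7 CPM in repeat. The difference was 0.52 ± 0.048 (1.44-fold, adjusted p = 8.12e-08), with no overlap of libraries. OAS1, which makes the oligoadenylates that activate RNase L, went from 217, 218 and 222 CPM to 290.0, 289 and 287 CPM. Its difference of 0.40 ± 0.027 (adjusted p = 9.79e-10) was well beyond a spread of a few CPM within each group. OASL, a relative of OAS1 without its catalytic activity, stood at 203, 192 and 204 CPM in acute and 249, 246 and 241 CPM in repeat (difference 0.29 ± 0.040, adjusted p = 0.00135).

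The remaining antiviral members that were called differed less. MX2, a dynamin-like GTPase acting on viral capsids, differed by 0.28 ± 0.052 (adjusted p = 0.0199), a call lost with DESeq2 and without any 1 of the libraries other than repeat replicate 1. LY6E, a membrane-anchored protein, differed by 0.25 ± 0.027 (adjusted p = 1.13e-06) and kept its call without each library in turn. OAS2, at 587, 592 and 583 CPM in acute and 637, 619.8 and 619.6 CPM in repeat, differed by 0.091 ± 0.021 (adjusted p = 0.0131), a call lost without acute replicate 1 or 3. IFI44, at 0.093 ± 0.026, lost its call without 5 of the 6 single libraries and with the length trend removed (adjusted p = 0.0948). The 3 lower members HELZ2, LGALS3BP and PML differed by -0.11, -0.10 and -0.090, and lost their calls without acute replicate 3, among others. Among the ISG15 conjugation genes, 1 of 6 tested was called, the ligase HERC5 (16.7%, against 1.77% of all genes tested). It was higher, with 77.4, 71.02 and 77.1 CPM in acute and 81.8, 81.7 and 83.3 CPM in repeat (difference 0.13 ± 0.035, adjusted p = 0.035). This call was lost without acute replicate 2 or 3, without repeat replicate 2 or 3 and with DESeq2.

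Promoters of called interferon genes are shown where a window held paired blocks like those of the interferon-stimulated response element, so the 6 printed were chosen for holding a match. PSMB9, ICAM1, SOCS3, STAT2, HELZ2 and HLA-C were also called and have windows in which neither motif below was found, and IFI44, LGALS3BP and TAPBP hold a match and are not printed. RSAD2 has 2 windows in the table and CMPK2 has 3, of which the 1 shown holds the marked motif. Each runs from 250 bases before to 20 bases after a RefSeq start site (GRCh38.p14), written 5′ to 3′ on the strand of the gene. Capitals mark matches on either strand to a pair of GAAA separated by any 2 bases in the first 4 and to GAAANGAAA, a motif added after the values were seen, in CMPK2 and OAS1.
RSAD2 (chr2:6877527-6877796, plus strand): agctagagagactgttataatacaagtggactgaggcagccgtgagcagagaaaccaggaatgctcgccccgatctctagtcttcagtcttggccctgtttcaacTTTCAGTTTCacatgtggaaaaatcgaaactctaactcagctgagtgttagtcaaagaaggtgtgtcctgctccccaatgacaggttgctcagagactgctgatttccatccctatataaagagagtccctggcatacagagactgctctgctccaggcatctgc
GBP4 (chr1:89198923-89199192, minus strand): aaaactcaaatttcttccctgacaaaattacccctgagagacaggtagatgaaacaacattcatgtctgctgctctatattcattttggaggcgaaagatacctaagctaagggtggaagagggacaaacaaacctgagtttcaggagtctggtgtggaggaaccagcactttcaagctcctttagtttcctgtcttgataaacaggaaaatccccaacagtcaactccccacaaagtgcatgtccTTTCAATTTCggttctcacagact
HLA-F (chr6:29723184-29723453, plus strand): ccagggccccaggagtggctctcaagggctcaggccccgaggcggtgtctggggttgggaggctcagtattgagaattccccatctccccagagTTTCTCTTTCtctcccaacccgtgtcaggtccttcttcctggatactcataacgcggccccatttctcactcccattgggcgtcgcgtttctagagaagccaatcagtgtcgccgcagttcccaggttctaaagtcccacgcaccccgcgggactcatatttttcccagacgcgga
HERC5 (chr4:88456869-88457138, plus strand): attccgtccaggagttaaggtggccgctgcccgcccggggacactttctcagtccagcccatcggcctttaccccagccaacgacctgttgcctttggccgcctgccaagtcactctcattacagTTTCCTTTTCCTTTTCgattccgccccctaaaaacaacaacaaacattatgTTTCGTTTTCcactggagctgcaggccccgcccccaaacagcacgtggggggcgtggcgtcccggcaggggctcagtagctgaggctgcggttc
CMPK2 (chr2:6865800-6866069, minus strand): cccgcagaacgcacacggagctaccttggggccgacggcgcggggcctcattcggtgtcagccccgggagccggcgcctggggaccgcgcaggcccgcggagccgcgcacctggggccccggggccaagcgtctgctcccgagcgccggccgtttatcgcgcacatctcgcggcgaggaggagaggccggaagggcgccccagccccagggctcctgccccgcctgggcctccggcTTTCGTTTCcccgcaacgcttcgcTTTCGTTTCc
OAS1 (chr12:112906712-112906981, plus strand): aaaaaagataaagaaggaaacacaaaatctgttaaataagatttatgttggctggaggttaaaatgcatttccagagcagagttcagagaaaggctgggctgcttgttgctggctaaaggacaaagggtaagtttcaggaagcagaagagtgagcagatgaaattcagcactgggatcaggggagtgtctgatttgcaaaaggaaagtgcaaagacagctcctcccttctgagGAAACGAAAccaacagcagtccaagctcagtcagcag

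The match begins 145 bases before the start site in RSAD2, 4 in GBP4 and 156 in HLA-F, and HERC5 holds 3 matches, of which 2 overlap. Over windows of 300 bases, the pair separated by 2 bases matched in 3.57% of all 35116 windows in the table and in 4.04% of the 11825 tested genes with a window. The share was 5.88% of the 255 genes called higher in repeat that have a window and 3.399% of the 353 called lower. It was 33.3% of the 216 interferon-induced genes described below that have a window. GAAANGAAA matched in 3.56% of tested genes, 5.10% of those called higher and 3.399% of those called lower. OASL, MX2, LY6E, STING1, OAS2 and PML were not in the table.

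Many of the most strongly induced antiviral genes differed by less than the test could call. MX1, a GTPase that blocks influenza and other viruses, stood at 783, 767 and 767 CPM in acute and 792, 799 and 814 CPM in repeat, which do not overlap, and its difference of 0.054 ± 0.045 had an adjusted p of 0.617. ISG15, a ubiquitin-like modifier, stood at 716, 693 and 715 CPM and 702, 742 and 677 CPM, with overlapping groups (difference -0.0027 ± 0.027, adjusted p = 0.980). IFI44L stood at 178, 175 and 177 CPM and 178, 169 and 167 CPM and also overlapped (difference -0.046 ± 0.028, adjusted p = 0.427). IFIT1, which binds viral RNA lacking host-type caps, differed by 0.020 ± 0.025 (adjusted p = 0.765), IFI27 by -0.014 ± 0.035 (adjusted p = 0.901) and BST2, which tethers budding virions, by -0.059 ± 0.043 (adjusted p = 0.542). These misses do not show that the levels were equal.

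**Figure D2:**
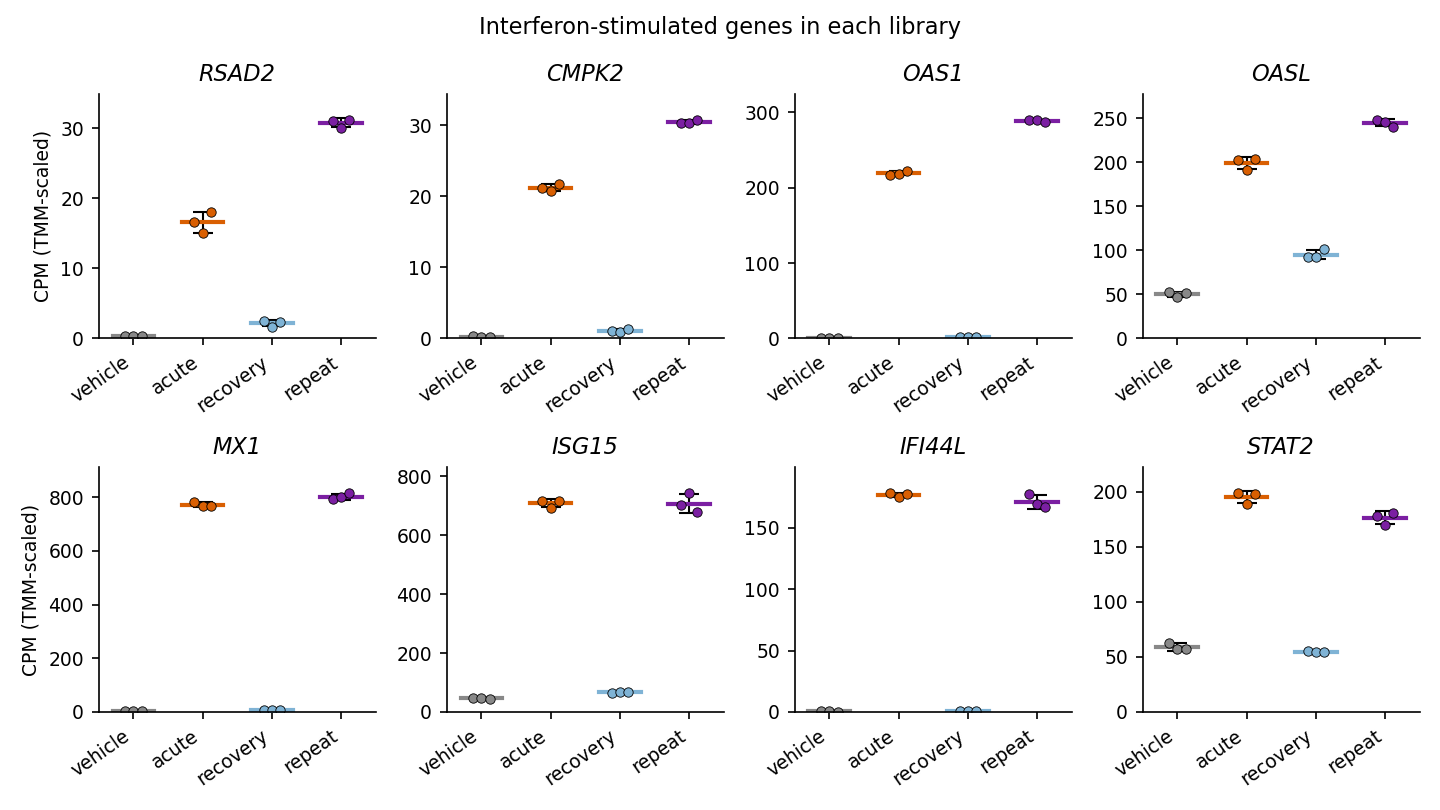
CPM of 8 interferon-stimulated genes in each library (points) of the 4 groups, with the group mean (coloured line) and SD over 3 libraries (black bars). RSAD2, CMPK2, OAS1 and OASL are higher in every repeat than in every acute library, MX1 is higher by a margin that was not called, ISG15 and IFI44L overlap between acute and repeat, and STAT2 is lower in every repeat library.

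Receptor, JAK, STAT and IRF genes held 1 call, a lower one, in 19 tested (5.26%, against 2.43% of all genes tested). STAT2 stood at 199, 189 and 198 CPM in acute and 178, 169.5 and 181 CPM in repeat, lower without overlap (difference -0.15 ± 0.031, adjusted p = 0.01), a call lost without acute replicate 1 or 3 or without repeat replicate 2. IRF9 differed by -0.021 ± 0.028 (adjusted p = 0.784) and IRF7 by -0.067 ± 0.035 (adjusted p = 0.330). For the receptor chains, IFNAR1 differed by -0.031 ± 0.027 (adjusted p = 0.617) and IFNAR2 by -0.12 ± 0.053 (adjusted p = 0.236).

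Of 12 negative regulators of interferon signalling, 1 was called, a higher one (8.33%, against 1.77% of all genes tested). SOCS3, which inhibits JAK kinases, was 48.02, 47.1 and 50.1 CPM in acute and 54.1, 55.4 and 52.1 CPM in repeat (difference 0.15 ± 0.035, adjusted p = 0.0104), a call lost without acute replicate 2 or without repeat replicate 2. USP18 stood at 127, 126 and 126 CPM in acute and 137, 139 and 133 CPM in repeat, which do not overlap, but its difference of 0.11 ± 0.047 was not called (adjusted p = 0.238). SOCS1 differed by -0.11 ± 0.10 (adjusted p = 0.639). Among 23 nucleic acid sensing genes, 1 was called, a higher one (4.35%, against 1.77% of all genes tested). This was STING1, the adaptor downstream of cGAS, at 60.03, 61.02 and 63.7 CPM in acute and 69.8, 68.7 and 69.6 CPM in repeat (difference 0.17 ± 0.034, adjusted p = 0.0034). The RNA sensor RIGI differed by 0.018 ± 0.039 (adjusted p = 0.883).

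Of 22 tested genes of MHC class I presentation, which load and display peptides to CD8+ T cells, 4 were called higher and 1 lower. These were 18.2% and 4.55%, against 1.77% and 2.43% of all genes tested, and the median was 0.022. HLA-F, a non-classical class I gene, rose from 21.6, 20.5 and 23.5 CPM to 28.8, 27.5 and 26.7 CPM (difference 0.34 ± 0.058, adjusted p = 0.00111). The immunoproteasome subunit PSMB9 rose from 50.6, 49.8 and 51.6 CPM to 62.3, 62.2 and 60.3 CPM (difference 0.28 ± 0.034, adjusted p = 5.18e-06). The groups did not overlap for either gene. PSMB9 (chromosome 6, 32844136 to 32859851, plus strand) overlaps TAP1, whose difference of 0.053 ± 0.024 was not called (adjusted p = 0.249). HLA-C differed by 0.094 ± 0.021, a call lost without acute replicate 2. Class I genes are near-identical in places, so their reads may be shared. HLA-B (0.080 ± 0.026, adjusted p = 0.0891) and B2M (0.039 ± 0.021, adjusted p = 0.351) were not called.

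Of 21 guanylate-binding and interferon-gamma-type genes, GBP4 was called higher and the adhesion receptor ICAM1 lower. Each was 4.76% of the list, against 1.77% higher and 2.43% lower of all genes tested. GBP4 stood at 7.26, 6.71 and 7.27 CPM in acute and 10.8, 9.62 and 9.93 CPM in repeat (difference 0.51 ± 0.088, adjusted p = 0.00111), and ICAM1 at 32.2, 33.7 and 33.7 and 29.4, 27.9 and 27.8 CPM (difference -0.22 ± 0.040, adjusted p = 0.00131). The chemokine CXCL8 was the call among 27 NF-kB targets and cytokines (3.70%, against 1.77% of all genes tested). It was higher, at 9.40, 9.77 and 10.2 CPM in acute and 13.9, 12.7 and 13.1 CPM in repeat (difference 0.44 ± 0.081, adjusted p = 0.00188). CXCL10 was at 0.249, 0.202 and 0.186 CPM in acute, too low to compare. Of 14 complement genes the protease C1R was called, as lower (7.14%, against 2.43% of all genes tested). It stood at 149.6, 152 and 156 CPM in acute and 139, 139 and 137 CPM in repeat (difference -0.14 ± 0.031, adjusted p = 0.0126), a call lost without acute replicate 2 or 3 or without repeat replicate 2 or 3. Over all 149 tested members of the interferon lists, 16 were higher, 6 were lower and the median was 0.0029. Of all genes tested, 1.77% were higher and 2.43% lower. In a list with a single call, the share rests on that gene alone.

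**Figure D3:**
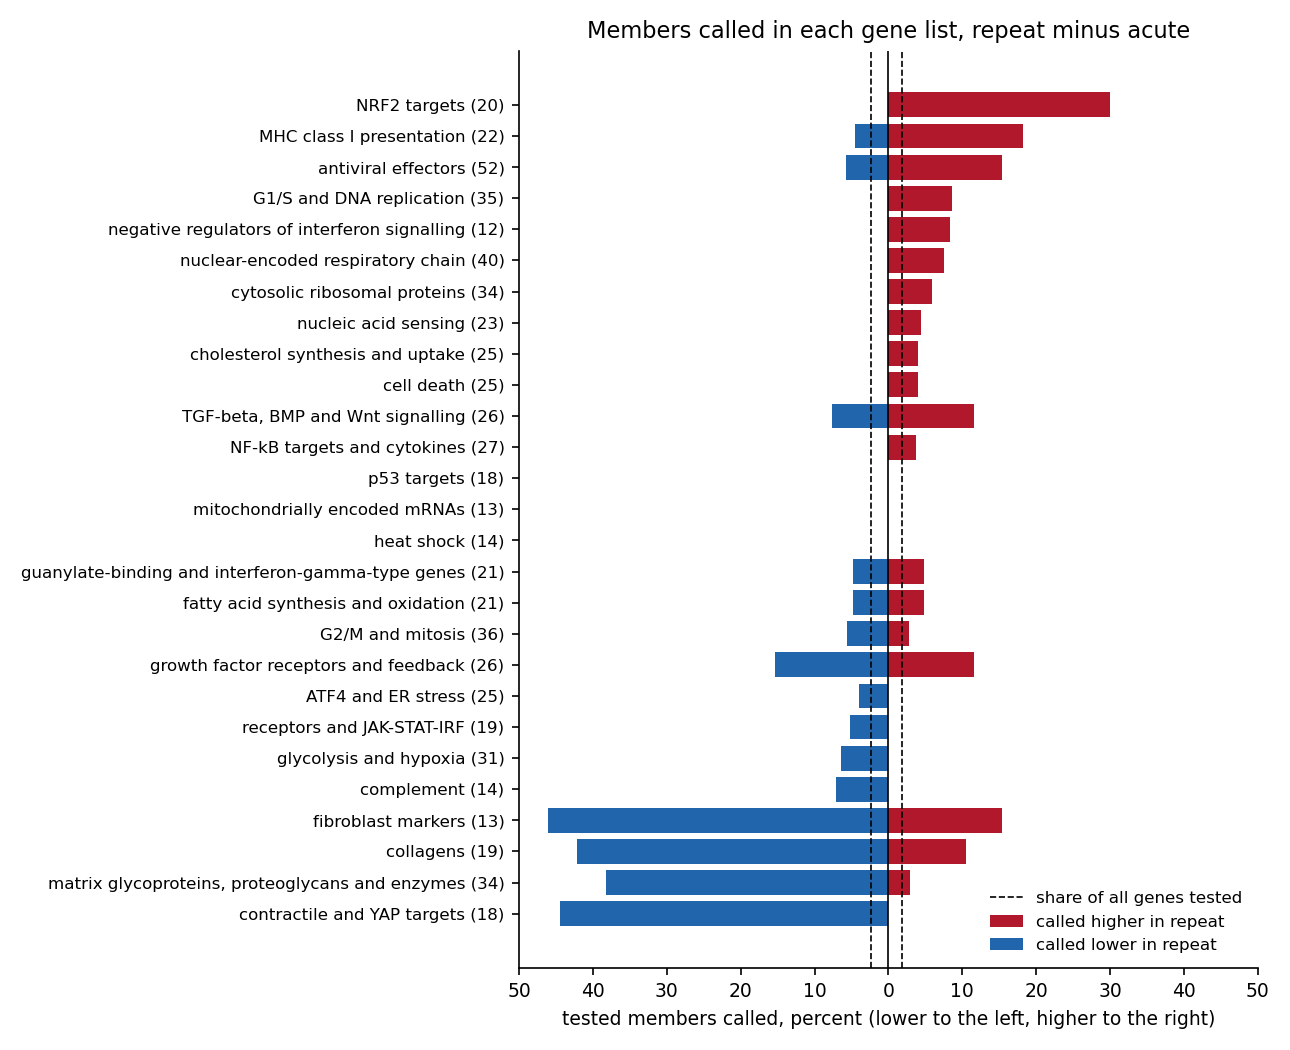
Percent of tested members called higher (red, to the right) and lower (blue, to the left) in repeat for each list with at least 10 tested members, whose number is in parentheses. Dashed lines mark 1.77% higher and 2.43% lower, the shares of all genes tested. These include genes at low levels, which were seldom called: 726 of the 761 calls fell in the 11121 genes at 5 CPM or more in the higher group. The longest bars to the left are the fibroblast, contractile, collagen and matrix lists, and the longest to the right is the NRF2 list.

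A wider view came from genes that interferon itself moved at least 2-fold, taken from the mean of acute and repeat against the mean of vehicle and recovery. This choice does not fix the sign of repeat minus acute. Of 341 induced genes, 24 were higher in repeat (7.04%, against 1.77% of all genes tested) and 8 were lower (2.35%, against 2.43%). The other 309 were not called, and the median was 0.018, with 5th and 95th percentiles of -0.30 and 0.40. Of 163 genes lowered by interferon, 6 were lower in repeat (3.68%, near the 2.43% of all genes tested) and 1 was higher, with a median of -0.071. The higher 1 was the low-level pseudogene GUSBP9, with means of 0.025 CPM in acute, 0.228 in vehicle, 0.218 in recovery and 0.239 in repeat. It entered this set through the acute libraries alone, so its call is no separate result. The 6 lower genes were PRKCA, NNMT, GFRA1, SREBF1, OLMALINC and COL4A4. PRKCA lost its call without 3 single libraries and with the length trend removed, where its difference went from -0.11 to -0.068 (adjusted p = 0.166). NNMT, OLMALINC, COL4A4 and GUSBP9 lost theirs without 5, 4, 2 and 3 single libraries. GFRA1, a receptor of the neurotrophic factor GDNF, stood at 37.03, 36.8 and 35.6 CPM in acute and 28.8, 29.3 and 27.8 CPM in repeat (difference -0.35 ± 0.053, adjusted p = 0.00146). SREBF1, which encodes a master regulator of lipid synthesis, stood at 63.3, 61.9 and 63.5 CPM in acute and 49.9, 49.4 and 48.3 CPM in repeat (difference -0.35 ± 0.044, adjusted p = 2.40e-04). TNFRSF10D, a decoy receptor for TRAIL that interferon lowered, stood at 12.9, 12.5 and 12.2 and 12.6, 12.5 and 13.1 CPM and differed by 0.015 ± 0.051 (adjusted p = 0.928).

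Several induced genes outside the antiviral lists were among the 24 that were higher. ITGA2, a collagen-binding integrin, stood at 146, 145 and 146 CPM in acute and 199.9, 178 and 194 CPM in repeat (difference 0.39 ± 0.068, adjusted p = 0.0195), a call lost without any 1 of the acute libraries or without repeat replicate 3. PLXNA2, a semaphorin receptor, differed by 0.31 ± 0.059 (adjusted p = 0.00444), and SEMA3A, a semaphorin, by 0.32 ± 0.062 (adjusted p = 0.00326). NT5E, the ectoenzyme that makes adenosine from AMP, differed by 0.24 ± 0.046 (adjusted p = 0.0196) and HAS2, a hyaluronan synthase, by 0.18 ± 0.042 (adjusted p = 0.0142), calls that were lost without acute replicate 1 or without repeat replicate 3, and for NT5E without 3 other libraries. PMAIP1, the pro-apoptotic NOXA, was the only call among 25 cell death genes (4.0%, against 1.77% of all genes tested). It stood at 109, 102 and 108 CPM in acute and 122, 120.1 and 119 CPM in repeat (difference 0.18 ± 0.030, adjusted p = 6.38e-04). ITGA2, PLXNA2, SEMA3A, NT5E and HAS2 were picked after their values were seen.

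Outside the interferon genes, the largest rise at a sizeable level was that of SFRP1, a secreted antagonist of Wnt ligands (ENSG00000104332.12; chromosome 8, 41261962 to 41309473, minus strand). It stood at 66.7, 64.03 and 66.6 CPM in acute and 97.8, 101 and 99.1 CPM in repeat, well apart, with a difference of 0.59 ± 0.031 (1.51-fold, adjusted p = 8.66e-13). Vehicle libraries held 62.5, 60.2 and 62.8 CPM and recovery libraries 105, 106 and 115 CPM. Levels were thus higher in the 2 groups pulsed days before than in the 2 not so. The former were also longer in culture by their labels, and the earlier pulse and time in culture cannot be told apart. PLAU, the urokinase plasminogen activator, stood at 25.4, 26.4 and 24.99 CPM in acute and 39.9, 36.95 and 37.8 CPM in repeat (difference 0.58 ± 0.053, adjusted p = 8.66e-07), and G0S2, an inhibitor of lipid breakdown, at 90.02, 82.4 and 96.9 and 122, 119.8 and 120.4 CPM (difference 0.43 ± 0.062, adjusted p = 0.00636). S100A6, a calcium-binding protein, had means of 243 ± 4.34 CPM in acute and 287 ± 6.96 CPM in repeat (SD, n = 3; difference 0.24 ± 0.023, adjusted p = 9.30e-08). The other largest rises at 5 CPM or more were NCAM2, SKP1P1, SNPH, EVI2B, ESM1 and GYPC, with differences of 0.40 to 0.49. Of these, SKP1P1, ESM1 and GYPC lost their call without at least 1 library.

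NRF2 targets, genes of glutathione and quinone metabolism switched on by oxidants and electrophiles, held 6 calls in 20 tested. Each of the 6 was higher (30.0%, against 1.77% of all genes tested), and all 20 differences were above 0, with a median of 0.075. AKR1C1, an aldo-keto reductase, stood at 10.2, 10.3 and 10.6 CPM in acute and 15.3, 14.98 and 15.4 CPM in repeat (difference 0.56 ± 0.060, adjusted p = 1.13e-06). AKR1C2 was lower in level, at 2.03, 1.67 and 1.58 CPM and 3.66, 3.33 and 3.09 CPM (difference 0.92 ± 0.17, adjusted p = 0.00187). These 2 genes are near-identical neighbours, and reads may have been shared between them. NQO1, a quinone reductase, stood at 174, 167 and 167 CPM in acute and 188, 188 and 189.7 CPM in repeat, a difference of 0.15 ± 0.023 (adjusted p = 1.63e-04). AKR1B1, an aldose reductase, differed by 0.16 ± 0.027, GCLM, a subunit of glutathione synthesis, by 0.14 ± 0.025, and FTH1, a ferritin chain, by 0.079 ± 0.022, the last being lost without any 1 of the libraries other than repeat replicate 3 and with the length trend removed. With the length trend removed 6 members were called higher. In acute minus vehicle, which shares the acute libraries, 3 of the 20 were higher and 9 lower, with a median of -0.049. In recovery minus vehicle 5 were higher and 1 lower, with a median of -0.0054.

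Among collagens and other matrix genes, more were called lower than higher in repeat, and most were not called. Of 19 collagens, 8 were lower (42.1%, against 2.43% of all genes tested) and 2 higher (10.5%, against 1.77%). Of 34 matrix glycoproteins, proteoglycans and enzymes, 13 were lower (38.2%) and 1 higher (2.94%). The medians were -0.11 and -0.076. With the length trend removed the lower calls were 8 and 11. COL1A1, a chain of type I collagen, stood at 3613, 3828 and 3816 CPM in acute and 3301, 3185 and 3078 CPM in repeat, without overlap (difference -0.24 ± 0.026, adjusted p = 1.11e-05). COL4A1, a chain of the basement membrane collagen, stood at 457, 462 and 479.6 and 386, 375 and 391 CPM (difference -0.28 ± 0.023, adjusted p = 1.30e-08). COL4A2 differed by -0.19 ± 0.020 and COL12A1 by -0.28 ± 0.043, whereas COL13A1, a transmembrane collagen, was higher by 0.21 ± 0.034 (adjusted p = 3.25e-04).

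POSTN, a matricellular protein of remodelling tissue, stood at 63.4, 63.6 and 64.5 CPM in acute and 43.6, 42.5 and 45.7 CPM in repeat, a difference of -0.54 ± 0.040 (adjusted p = 1.68e-08). Its vehicle values, 67.6, 60.5 and 67.4 CPM, lay with acute and its recovery values, 44.3, 40.7 and 43.7 CPM, with repeat. FN1, fibronectin, stood at 7619, 7868 and 7979 CPM and 7012, 6355 and 6933 CPM (difference -0.21 ± 0.035, adjusted p = 0.00493). BGN, a small proteoglycan, differed by -0.27 ± 0.030 (adjusted p = 1.58e-06) and LOX, which crosslinks collagen, by -0.18 ± 0.022 (adjusted p = 7.48e-06). TNC, at -0.19 ± 0.046 (adjusted p = 0.0484), lost its call without any 1 of the 6 libraries. The higher matrix gene was TIMP3, an inhibitor of metalloproteinases, at 0.087 ± 0.025 (adjusted p = 0.0491), likewise lost without any 1 library.

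A list of contractile genes and targets of YAP, a transcriptional coactivator, held 8 calls in 18 tested. Each of these was lower (44.4%, against 2.43% of all genes tested). The median was -0.074, and 8 were also lower with the length trend removed. The members that fell were smooth-muscle type genes of the actin cytoskeleton: ACTA2, CNN1, ACTG2, TAGLN, MYL9, CALD1, TPM1 and CNN2. The calls of TPM1 and CNN2 were each lost without 4 of the 6 single libraries. The YAP targets CCN1, CCN2 and ANKRD1 were not called, with differences of 0.014, -0.0083 and 0.055, and 4 of the 18 differences lay above 0. TAGLN, transgelin, stood at 279, 286 and 297 CPM in acute and 243, 247 and 244 CPM in repeat (difference -0.23 ± 0.024, adjusted p = 8.53e-07). ACTA2, smooth muscle actin, had means of 13.1 ± 0.818 CPM in acute and 10.1 ± 0.351 CPM in repeat (SD, n = 3; difference -0.37 ± 0.064, adjusted p = 0.00102). CNN1, calponin, differed by -0.30 ± 0.055 (adjusted p = 0.00168). MYOCD, the coactivator of serum response factor that drives such genes, had means of 20.7 ± 1.31 CPM in acute and 15.9 ± 0.954 CPM in repeat (SD, n = 3; difference -0.38 ± 0.086, adjusted p = 0.0316), a call lost without any 1 of the libraries other than repeat replicate 1.

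**Figure D4:**
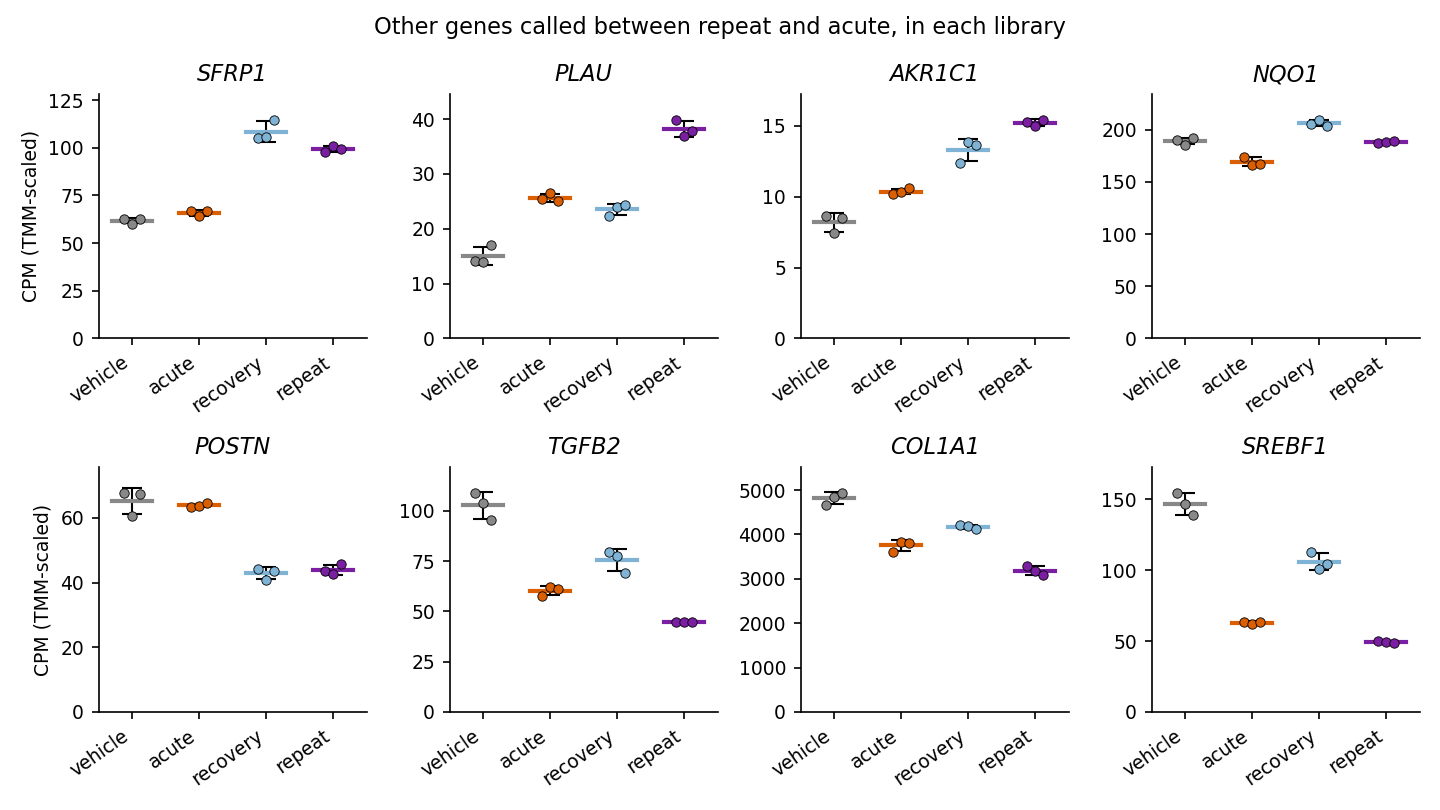
CPM of 8 genes outside the antiviral lists in each library (points) of the 4 groups, with the group mean (coloured line) and SD over 3 libraries (black bars). SFRP1, PLAU, AKR1C1 and NQO1 are higher and POSTN, TGFB2, COL1A1 and SREBF1 lower in every repeat than in every acute library, and for each gene recovery lies on the same side of vehicle as repeat of acute.

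Of 26 genes of TGF-beta, BMP and Wnt signalling, 3 were higher and 2 lower. These were 11.5% and 7.69%, against 1.77% and 2.43% of all genes tested. The lower ones were the ligands TGFB2 and BMP4. TGFB2 stood at 57.6, 61.98 and 61.4 CPM in acute and 44.8, 44.7 and 44.8 CPM in repeat (difference -0.43 ± 0.062, adjusted p = 0.0049), and BMP4 at 19.9, 20.3 and 19.4 and 16.6, 17.3 and 15.9 CPM (difference -0.26 ± 0.047, adjusted p = 0.00154). The higher ones were SFRP1, the receptor TGFBR2, at 117, 119.5 and 123 CPM in acute and 140.3, 134 and 132 CPM in repeat (difference 0.17 ± 0.028, adjusted p = 3.56e-04), and the BMP antagonist GREM1 (difference 0.075 ± 0.021, adjusted p = 0.0382), whose call was lost without acute replicate 1 or 2 or without repeat replicate 3. Of 26 growth factor receptors and feedback genes, 3 were higher (11.5%) and 4 lower (15.4%). IGFBP5, which binds insulin-like growth factors, was lower (-0.71 ± 0.11, adjusted p = 3.51e-04), as were the platelet-derived growth factor receptors PDGFRA (-0.23 ± 0.038) and PDGFRB (-0.14 ± 0.030, lost without acute replicate 3), while IGFBP6, a relative of IGFBP5, was higher (0.22 ± 0.040, adjusted p = 0.00531).

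The 15 largest falls at 5 CPM or more included other genes of varied function. TENM2, a teneurin adhesion protein, stood at 14.9, 15.03 and 14.6 CPM in acute and 10.2, 9.46 and 10.6 CPM in repeat (difference -0.56 ± 0.055, adjusted p = 2.06e-07). CYP24A1, which inactivates vitamin D, differed by -0.42 ± 0.081 (adjusted p = 0.00377) and the atypical cadherin CELSR2 by -0.36 ± 0.058 (adjusted p = 3.34e-04). AGAP6, LYPD6B, MSC, ANXA8L1, PABPC1L and CRELD1 differed by -0.53 to -0.36, and of these AGAP6 and CRELD1 lost their call without at least 1 library. OLR1, a scavenger receptor, at -0.54 ± 0.12, and TNFRSF11B, osteoprotegerin, at -0.38 ± 0.080, lost theirs without any 1 of the 6 libraries.

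Fibroblast markers, some of which also stand in the collagen and matrix lists, held 6 lower and 2 higher calls in 13 tested. These were 46.2% and 15.4%, against 2.43% and 1.77% of all genes tested. The higher ones were S100A4 and VIM, both lost without 4 of the 6 single libraries. Among the cardiomyocyte markers, ACTN2, an alpha-actinin of the Z-disc, was higher, at 1.99, 1.82 and 1.96 CPM in acute and 3.92, 3.35 and 3.48 CPM in repeat (difference 0.89 ± 0.13, adjusted p = 1.69e-04). The natriuretic peptide gene NPPB was lower at a very low level, 0.516, 0.582 and 0.559 CPM in acute and 0.276, 0.259 and 0.185 CPM in repeat (difference -1.18 ± 0.31, adjusted p = 0.0291). Of the endothelial markers VWF was lower, also at a very low level (-1.25 ± 0.34, adjusted p = 0.0337). Both low calls were lost with DESeq2 and without most single libraries. TNNT2, cardiac troponin T, did not pass the filter.

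Other lists held few calls. Of all genes tested, 1.77% were called higher and 2.43% lower. Cell cycle genes held 3 calls, all higher, in 35 of G1/S, and 1 higher and 2 lower in 36 of G2/M, with MKI67, a marker of dividing cells, at -0.13 ± 0.031 (adjusted p = 0.0328), a call lost without any 1 of the acute libraries or without repeat replicate 3. Of 34 cytosolic ribosomal protein genes 2 were higher and all 34 differences were above 0 (median 0.043), and 34 of these genes lie in the shortest length class. Of 40 nuclear-encoded respiratory chain genes 3 were higher and 37 were above 0 (median 0.037), with 35 in the shortest class. With the length trend removed these medians were 0.018 and 0.015 and the calls 1 and 2, all higher, while G1/S held 2 higher calls and G2/M 1 lower. The mitochondrially encoded mRNAs, p53 targets and heat shock genes held 0 calls by edgeR in 13, 18 and 14 tested, with 4, 3 and 5 at an unadjusted p under 0.05, 1, 0 and 2 calls by DESeq2 and 0, 0 and 1 by limma-voom. Cholesterol genes held 1 higher call, PMVK, in 25, lost with DESeq2 and without 3 single libraries. Glycolysis and hypoxia genes held 2 lower calls in 31, and ATF4 targets 1 lower, the amino acid transporter SLC7A5 (-0.12 ± 0.025, lost without acute replicate 2), in 25. SCD, the stearoyl-CoA desaturase, stood at 448, 451 and 436 CPM in acute and 391, 378 and 378 CPM in repeat, without overlap, and was not called (-0.22 ± 0.082, adjusted p = 0.219).

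The same pair of regimens without a current pulse, recovery against vehicle, shares no library with repeat minus acute. It called 1076 genes, 5.94% of those tested, 549 of them higher (3.03%) and 527 lower (2.91%). Of these, 284 were also called in repeat minus acute, 37.3% of the calls of that comparison and 26.4% of those of recovery minus vehicle. The direction was the same for 283 of the 284, 131 higher and 152 lower, and the exception was DEK, a chromatin protein whose repeat-minus-acute call was lost without 5 of the 6 single libraries, at 0.076 in repeat minus acute and -0.074 in recovery minus vehicle. Of all 761 genes called between repeat and acute, 654 (85.9%) had the same sign in recovery minus vehicle. The share with the same sign among all genes tested is not given here, so how far 85.9% lies from it cannot be told. POSTN differed by -0.60 there, COL1A1 by -0.21, TGFB2 by -0.45, TENM2 by -0.71, PLAU by 0.65, AKR1C1 by 0.70 and ACTN2 by 0.99. Vehicle libraries carry a 24 h label, so time in culture differs in this comparison as well and cannot be told apart from the earlier pulse.

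The 2 differences were then set against each other in 1 test. It called 118 genes (0.651%), 40 with a value of repeat minus acute above that of recovery minus vehicle and 78 with one below, and 39 of them were among the 761. For RSAD2, OAS1 and OAS2 the difference was smaller, on the log2 scale, at the ends of the pulses than without a current pulse. RSAD2 differed by 2.54 between recovery and vehicle and by 0.89 between repeat and acute, and the test of these gave -1.65 ± 0.22 (adjusted p = 1.29e-04). For OAS1 the values were 2.23 and 0.40 (test -1.83 ± 0.18, adjusted p = 8.15e-07), and for OAS2 1.86 and 0.091 (test -1.77 ± 0.065, adjusted p = 1.40e-16). On the CPM scale the order was the reverse: OAS2 means were 3.15 ± 0.0651 in vehicle and 11.4 ± 0.741 in recovery, against 587 ± 4.16 in acute and 625 ± 10.01 in repeat (SD, n = 3). Of the 341 induced genes, 77 were higher in recovery than in vehicle (22.6%, against 3.03% of all genes tested), against the 24 higher in repeat than in acute, and for 32 the repeat-minus-acute difference was called below, and for 2 above, that of recovery minus vehicle.

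**Figure D5:**
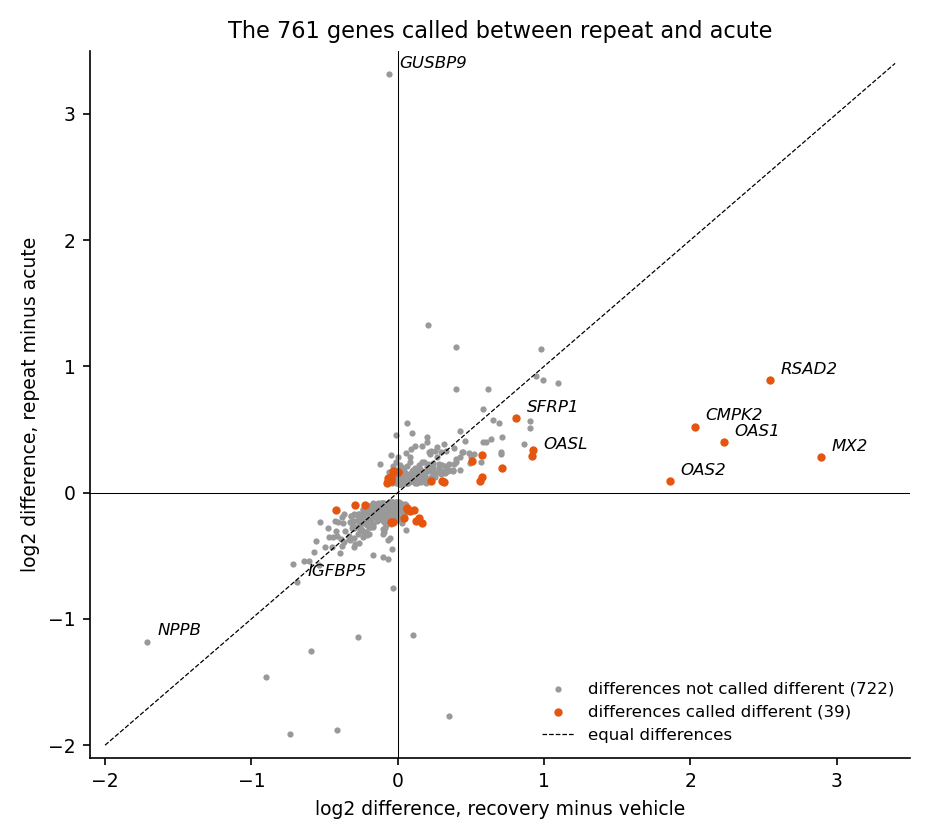
Log2 difference of repeat minus acute against that of recovery minus vehicle for the 761 genes called between repeat and acute (points). Orange points are the 39 genes whose 2 differences were called different, and the dashed line marks equal differences. Most points lie in the lower left and upper right of the plot, and RSAD2, CMPK2, OAS1, OAS2 and MX2 lie far to the right of the line.

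For POSTN, COL1A1 and TGFB2, all lower in repeat, the 2 differences were not called different. The test gave 0.065 ± 0.057 for POSTN (adjusted p = 0.762), -0.029 ± 0.037 for COL1A1 (adjusted p = 0.850) and 0.021 ± 0.084 for TGFB2 (adjusted p = 0.968), which does not show them to be equal. SFRP1 was called, with a smaller difference at the ends of the pulses (-0.22 ± 0.044, adjusted p = 0.0133). Cholesterol synthesis and uptake genes held 16 lower calls in 25 between recovery and vehicle, where 2.91% of all genes tested were lower. Between repeat and acute they held 1 call, a higher one (4.0%, against 1.77% of all genes tested). Of the collagens 12 of 19 were lower in recovery than in vehicle. Beside these, 8 of 19 were lower in repeat than in acute (42.1%, against 2.43% of all genes tested).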

How the data were processed

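RNA was sequenced from 12 libraries of AC16 cells. Per the labels' protocols they were poly(A)-selected and stranded and read as single 75 bp reads. The submitters' processing notes list STAR 2.7.11a, featureCounts 2.0.3, Trim Galore 0.6.10, Picard 2.27.5, edgeR and cutadapt 4.3, with GRCh38.p13. The design text in the labels names DESeq2. The authors deposited estimated counts per gene, unscaled, of which 25.5% of nonzero values were not whole, and TPM values. Counts were rounded and tested in R 4.3.3 with edgeR 4.0.16 (quasi-likelihood F test, robust, TMM scaling, filterByExpr, two-sided), with all 12 libraries in 1 fit, since groups of 3 share an estimate of spread, and no covariate. Calls were made below a p of 0.05 after Benjamini-Hochberg adjustment across 18119 genes. Differences are log2 ± SE of the fit, and CPM values are TMM-scaled, listed by replicate 1, 2 and 3. P-values measure the spread between libraries that the design text calls biological replicates, and would be too small if these shared a culture.

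Symbols and coordinates are from GENCODE release 44 (GRCh38) for 60463 identifiers, where the authors used release 41 per the design text. Members, the 31 gene lists and tests were chosen with earlier results of these data known. Named genes are the 15 largest called rises and falls without overlap at 5 CPM or more, up to 4 called members per list, genes always given and members of small counts. Further called list members were named after their values were seen. So were genes of the sets that interferon induced or lowered, taken from acute and repeat against vehicle and recovery. Alternatives were DESeq2 1.42.0, limma-voom (limma 3.58.1), upper quartile scaling, limma on log2(TPM + 1), offsets for gene length, no filter, only 6 libraries, a replicate block and each library left out. The tests were checked on simulated counts. Some items are not reported here.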

Additional observations from a re-analysis of the deposited data

Results flagged for a closer look

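For 28 genes named in the text the difference between repeat and acute was called different from that between recovery and vehicle, by a test of the difference itself in edgeR. The values are (repeat minus acute) minus (recovery minus vehicle), on the log2 scale. They were -2.61 for MX2, -1.83 for OAS1, -1.77 for OAS2, -1.65 for RSAD2, -1.51 for CMPK2 and -1.02 for MX1. They were -0.63 for OASL, -0.58 for HLA-F, -0.54 for RIGI, -0.53 for ISG15, -0.47 for IFI44, -0.47 for IFIT1, -0.45 for HERC5 and -0.26 for LY6E. Each of these 14 genes is interferon-stimulated, and each was higher in recovery than in vehicle by more, on this scale, than in repeat than in acute. The largest values came with very low levels without a current pulse. MX2 means were 0.302 CPM in vehicle and 2.39 in recovery, against 220 in acute and 266 in repeat. For OAS1 they were 0.419 and 2.04 CPM, against 219 and 289. ISG15, IFIT1, RIGI and MX1 were called between recovery and vehicle (0.53, 0.49, 0.55 and 1.08) but not between repeat and acute.

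SFRP1 (-0.22), TIMP3 (-0.23), PODXL (-0.28), CD44 (-0.21) and HLA-C (-0.14) also had the smaller difference at the ends of the pulses. For AKR1B1 the value was 0.16, with 0.16 in repeat minus acute and no call in recovery minus vehicle (adjusted p = 0.996). For C1R it was 0.28, with a fall in both comparisons, larger in recovery minus vehicle (-0.42) than in repeat minus acute (-0.14). DEK, at 0.15, was higher in repeat than in acute (0.076) and lower in recovery than in vehicle (-0.074). HECTD4 (-0.24), MYRF (-0.19), HTT (-0.19), S100A10 (0.16), MGST1 (0.20) and YES1 (0.17) were not called between recovery and vehicle. Groups of 3 libraries were not tested for single outlying samples.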

How the results depend on the processing

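The counts of 321 higher and 440 lower genes stayed within 1.5 times under upper quartile scaling (339 and 391), DESeq2 (253 and 367), limma-voom (321 and 429), only the 6 acute and repeat libraries (223 and 303) and removal of the length trend (327 and 398, an alternative chosen after seeing the data). Without a filter on low counts 514 genes were higher and 453 lower. On the log2 TPM scale 3 genes were higher and 3 lower, with 1 antiviral effector and 0 NRF2 targets higher, and 2 collagen or matrix genes and 0 contractile genes lower. With each library's implied gene lengths as an offset, 5 were higher and 5 lower, and the same list counts were 1, 0, 2 and 0. In these 2 settings 79 and 77 of the 83 called named genes lost their call and none of the 105 reversed. The implied gene length varied over libraries by a median of 4.75%. Leaving out 1 library gave 147 to 526 higher and 166 to 692 lower genes, and 5 to 8 antiviral effectors higher. Beyond 1.5-fold, edgeR called 0 genes and DESeq2 1, BORCS7-ASMT, a threshold test chosen after seeing the data.

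No pairing by replicate number was seen between acute and repeat libraries. Correlations of their deviations were -0.26, -0.092 and 0.022 for the same number and -0.17 to 0.23 for unlike numbers. Deviations from a mean of 3 libraries are tied to each other, so this check cannot exclude a pairing. A fit with a replicate block called 361 genes higher and 494 lower, and among the named genes it ended only the call of SKP1P1. Genes called at 2-fold or more all had means of at most 1.80 CPM, where few counts limit the precision.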

Other observations

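Among the 39 genes called between repeat and acute whose difference was also called different from that of recovery minus vehicle, several lay outside the interferon lists, and those below were chosen after their values were seen. PODXL, a sialomucin of the cell surface, and CD44, the hyaluronan receptor, were higher in both comparisons, by 0.30 and 0.093 in repeat minus acute and by 0.58 and 0.31 in recovery minus vehicle. HECTD4, a putative ubiquitin ligase, MYRF, a membrane-bound transcription factor, and HTT, huntingtin, were lower in repeat than in acute (-0.20, -0.23 and -0.12) and not called between recovery and vehicle (0.040, -0.043 and 0.064). S100A10, MGST1, a microsomal glutathione transferase, and YES1, a kinase of the SRC family, were higher in repeat than in acute (0.16, 0.17 and 0.13) and not called between recovery and vehicle (0.0021, -0.030 and -0.044). CD44 lost its repeat-minus-acute call with the length trend removed and without 5 single libraries, and HTT without 3.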
